A study of Rattus norvegicus with 15 samples.

Results

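The comparison covers the first molar germs of rat embryos at the earliest and the latest stage of the study, E15 and E18. It holds 10 of the 15 libraries of the series, 5 at each stage, chosen by the stage in their labels, and no tooth of the stage in between enters. The E15 germs are labelled Molar 1 and E15.5, the E18 germs lower first molar, DA/HanRj, wild type and E18; the study's methods give the DA/HanRj strain for the E15 rats. Each library was made from 1 tooth, with 3 left and 2 right teeth per stage, and within a stage every tooth came from another embryo. All E15 titles carry the code OH8 and all E18 titles the code OH47, so that stage cannot be told apart from litter, preparation or anything else that follows these codes. The labels of E15 name homogenisation in TRI Reagent and those of E18 storage in RNAlater, while the study's methods section, which describes the E15 but not the E18 rats, lists both steps for germs dissected with little of the tissue around them.

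A molar begins as a bud of epithelium in a mesenchyme derived from the neural crest, folds into a cap and then a bell, and only later lays down dentine and enamel. Folding is organised by enamel knots, epithelial signalling centres that secrete Shh, FGFs, BMPs and Wnts, and these signals act on receptors in both layers. The study sorts the genes known from mouse mutants into categories of keystone genes, namely progression (the tooth arrests without the gene), shape (the crown is altered), double (arrest in double mutants) and tissue (enamel or dentine is defective), with dispensable genes as those that are expressed but have no tooth phenotype.

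Library totals ranged from 10993502 to 27571541 counts. The deepest were replicate 1 of E15 and replicate 1 of E18, and the other 8 had 10993502 to 13527608. Levels are given as normalized counts, the count of a gene in a tooth divided by the size factor of that tooth, always in the order of replicates 1 to 5. They are not corrected for gene length, so levels are compared between teeth and not between genes. A gene without a count could have had up to 3 counts, which is 1.48 to 3.77 normalized counts, and this limit covers counting error only. E18 replicate 3 stood apart from the others. Its mean correlation with the other E18 teeth, across genes on the log2 scale, was 0.877 against 0.953 to 0.959 for the remaining E18 teeth and 0.951 to 0.979 at E15. The numbers of genes called higher and lower, over all genes and in each list, are therefore also given without it where they differ. Over all genes, counts of 4-fold changes and of genes without overlap are given with all teeth only. The same holds for most named genes whose call changed. The defining mesenchymal markers of a tooth germ were present at both stages, while the epithelial ones were not all well detected at E15. The epithelial marker Trp63 and the mesenchymal markers Msx1, Pax9, Barx1, Lhx6 and Lhx8 were above 500 normalized counts in every tooth, whereas Shh, Sp6 and Foxi3 were low at E15.

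Of 12661 genes tested, 2656 differed between E18 and E15 at an adjusted p under 0.05 (21.0% of the genes tested; edgeR quasi-likelihood F test with Benjamini-Hochberg adjustment). Of these, 1804 were higher at E18 (14.2%) and 852 were lower (6.73%). Changes of at least 2-fold were found in 840 genes on the higher side (6.63%) and in 218 on the lower side (1.72%). The asymmetry grew with size, with 255 genes at least 4-fold higher and 43 at least 4-fold lower, while the median log2 fold change over all genes tested was -0.017. Normalized counts of all 5 E18 teeth lay above all 5 E15 teeth in 1576 genes (12.4%) and below them in 1358 (10.7%). Without E18 replicate 3 the test gave 2083 higher genes (16.3% of 12757) and 1484 lower genes (11.6%), and 2609 of the 2656 genes were called again, none with the other sign. Without that tooth 841 genes were at least 2-fold higher and 211 at least 2-fold lower. In whole germs, more cells of a type and more RNA per cell cannot be told apart. Symbols were at hand for 349 of the genes tested, the genes listed with the study, and of these 114 were higher and 32 lower. Both are larger shares than the 14.2% and 6.73% over all genes. A list drawn from the named genes can thus exceed the shares over all genes without exceeding those of the named genes. For rises this was so, among others, in the progression genes and in the Wnt, TGFB, FGF and ectodysplasin pathways.

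**Figure D1:**
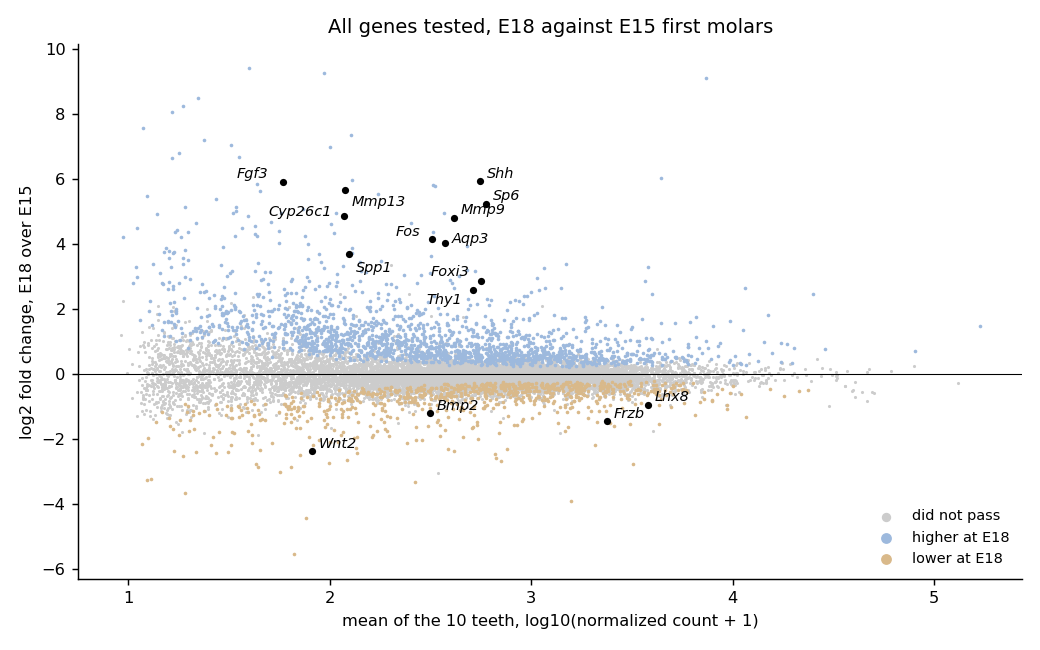
Each point is 1 of the 12661 genes tested, with its mean over the 10 teeth on the x axis (log10 of normalized count + 1) and its log2 fold change, E18 over E15, on the y axis. Points past an adjusted p of 0.05 are coloured, and 15 named genes are marked in black; 1804 points lie on the higher and 852 on the lower side, and the points beyond 4-fold are mostly above 0.

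Hedgehog signalling held the largest rise among the named genes. Shh (ENSMUSG00000002633), the ligand secreted by the enamel knot and the dental epithelium, had 26.8, 1.13, 8.43, 48.0 and 0 normalized counts in the E15 teeth and 701, 1131, 1127, 1220.2 and 1282 in the E18 teeth. The stages were far apart in every tooth, and E15 itself ranged from 0 to 48.0 (log2 fold change 5.94 ± 0.66 (SE), adjusted p = 9.26e-05; 5.89 without E18 replicate 3). Ptch1, the main receptor and a negative feedback target, went from 4209 ± 759 (mean ± SD, n = 5) to 11755 ± 1456 normalized counts (log2 fold change 1.5 ± 0.14 (SE), adjusted p = 3.02e-05), also without overlap. Hhip, which binds and sequesters the ligand, rose from 244 ± 42.7 to 567 ± 41.8 (log2 fold change 1.23 ± 0.13 (SE), adjusted p = 7.74e-05). Gli1, the transcription factor most directly switched on by the pathway, had 1425, 1341, 2751, 2568 and 1621 at E15 and 2726, 3802, 4281, 4259 and 4456 at E18. Gli1 rose (log2 fold change 1.02 ± 0.22 (SE), adjusted p = 0.00678), though its lowest E18 tooth was below its highest E15 tooth. Within E15, Ptch1, Gli1 and Foxi3 were highest in replicates 3 and 4, while at E18 replicate 1 had the lowest value for Shh, Ptch1, Gli1 and Hhip.

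None of the 3 hedgehog co-receptors rose. Cdon fell from 2919 ± 322 to 2114 ± 370.3 normalized counts (log2 fold change -0.45 ± 0.13 (SE), adjusted p = 0.0287), a call that 6 of the fits without 1 tooth lost, at an adjusted p of up to 0.0773. Gas1 had 1328 ± 153 at E15 and 944 ± 231 at E18 without passing the test (adjusted p = 0.0556; 0.00248 without E18 replicate 3, log2 fold change -0.61), and Boc stood at 3377 ± 255 and 3187 ± 659 (log2 fold change -0.067, 95% interval -0.35 to 0.22). The transducer Smo had a log2 fold change of 0.13 (95% interval -0.086 to 0.34). Gli3, the factor that mainly represses targets when the ligand is absent, fell by 0.60 on the log2 scale, from 4625, 4504, 6239.8, 5126 and 4573 to 3129, 3196, 3351, 3406 and 3256 (adjusted p = 0.00128), with no overlap. Ihh, a paralogous ligand, fell from 73.6 ± 31.9 to 10.2 ± 5.52 with no overlap (log2 fold change -2.77 ± 0.42 (SE), adjusted p = 0.000786). Over the 40 hedgehog pathway genes tested, 5 rose and 5 fell (12.5% each, beside 14.2% and 6.73% of all genes), with a median log2 fold change of -0.13; without E18 replicate 3 the counts were 5 and 8. Among the rises were those of Shh, Ptch1, Gli1 and Kctd11, and 30 members did not pass. Kctd11, an adaptor that lowers hedgehog activity, rose from 33.5 ± 12.4 to 100.6 ± 15.2 (log2 fold change 1.58 ± 0.28 (SE), adjusted p = 0.00216).

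**Figure D2:**
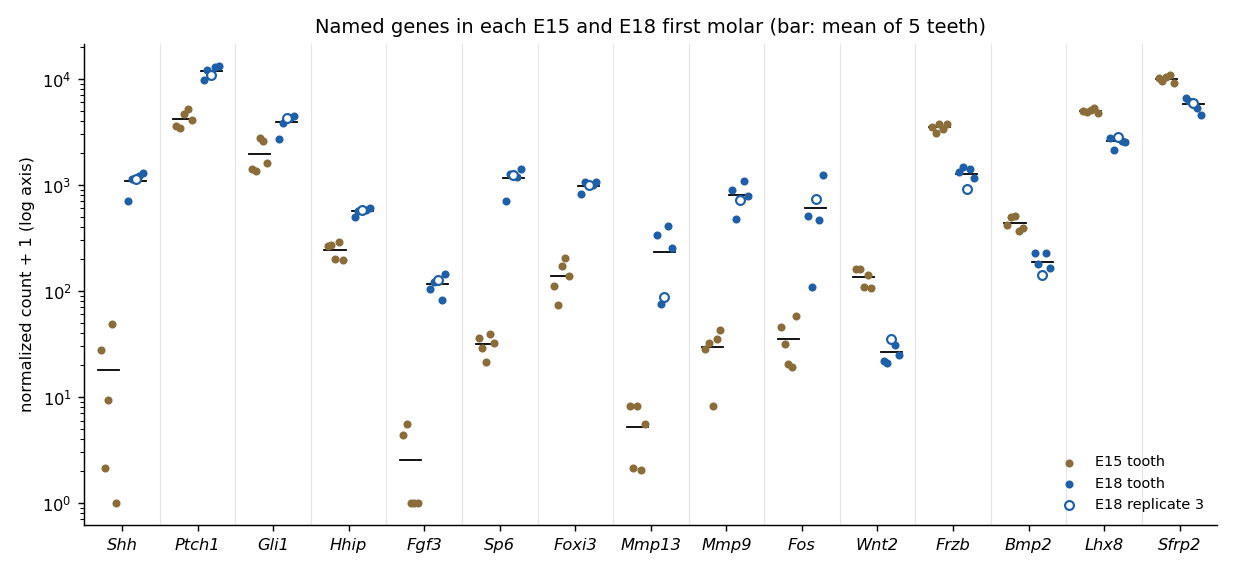
Normalized count + 1 (log axis) of 15 genes in each tooth, E15 in brown and E18 in blue, with E18 replicate 3 as an open circle and a bar at the mean of 5 teeth. Shh, Ptch1, Gli1, Hhip, Fgf3, Sp6, Foxi3, Mmp13, Mmp9 and Fos were higher at E18, and Wnt2, Frzb, Bmp2, Lhx8 and Sfrp2 lower; Gli1 is the single gene shown whose teeth overlap between stages.

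FGF ligands of the enamel knot and of the mesenchyme beneath it followed. Fgf3 (ENSMUSG00000031074) had 3.35, 4.51, 0, 0 and 0 normalized counts at E15, where 3 of the 5 teeth had no read, and 104, 121, 125, 80.4 and 142 at E18 (log2 fold change 5.91 ± 0.57 (SE), adjusted p = 4.08e-05). Fgf4, which marks the knot itself, was near the counting limit at E15 with 0.558, 0, 0, 4.26 and 6.90 and had 19.8, 15.1, 17.2, 20.6 and 16.9 at E18 (log2 fold change 3.0 ± 0.67 (SE), adjusted p = 0.0083). Fgf20, which lies downstream of ectodysplasin, had 12.8, 1.13, 0, 5.33 and 20.7 at E15 and 24.2, 11.3, 9.16, 13.4 and 16.9 at E18 and did not pass (log2 fold change 0.90, 95% interval -0.62 to 2.41). For Fgf9 the log2 fold change was -0.19 (95% interval -0.74 to 0.35). Fgf10, a mesenchymal ligand, stood at 260.0 in E18 replicate 3 against 558 to 688 in the other E18 teeth and 436 to 533 at E15. It missed the threshold with that tooth (adjusted p = 0.505) and passed without it (log2 fold change 0.40, adjusted p = 0.00728). The feedback inhibitors of FGF signalling Spry2 and Spry4 both rose, from 404 ± 37.7 to 647 ± 81.5 (log2 fold change 0.69 ± 0.11 (SE), adjusted p = 0.00104) and from 604 ± 77.9 to 939.9 ± 49.1 (log2 fold change 0.65 ± 0.10 (SE), adjusted p = 0.000896). Over the FGF pathway, 14 of 60 genes tested rose and 2 fell (23.3% and 3.33%, beside 14.2% and 6.73% of all genes), with a median log2 fold change of 0.22. Without E18 replicate 3 the pathway had 20 rises and 6 falls. With all teeth the falls were Pdgfra and Sos2, an exchange factor that activates Ras (log2 fold change -0.39 ± 0.12 (SE), adjusted p = 0.0419), whose call was lost in 9 alternatives, at an adjusted p of up to 0.103.

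RefSeq promoter sequences (GRCr8) were at hand for Fgf3 and Mmp13, a pair among the 3 largest named rises, and the 250 bases before the start of each are shown because their transcripts were nearly absent at E15. Fgf3 lies at chr1:209430207-209430456 and Mmp13 at chr8:12782579-12782828, both on the plus strand. Capitals mark a TATA box (TATAAA) and an AP-1 site (TGACTCA, the sequence bound by Fos and Jun dimers, chosen after the values were seen).
Fgf3: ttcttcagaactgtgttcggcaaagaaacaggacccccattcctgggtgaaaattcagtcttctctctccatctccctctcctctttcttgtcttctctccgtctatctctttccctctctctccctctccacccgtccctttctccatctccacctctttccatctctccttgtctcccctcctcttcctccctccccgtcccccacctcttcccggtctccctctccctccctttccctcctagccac
Mmp13: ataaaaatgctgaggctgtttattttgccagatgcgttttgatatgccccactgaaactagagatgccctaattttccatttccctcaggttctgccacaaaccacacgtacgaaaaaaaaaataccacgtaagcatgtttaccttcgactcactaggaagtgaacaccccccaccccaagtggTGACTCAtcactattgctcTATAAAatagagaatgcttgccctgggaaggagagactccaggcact
In Mmp13 the AP-1 match lies 66 to 60 bases and the TATA match 47 to 42 bases before the start. Searched on both strands, the TATA box occurs in 12.9% and the AP-1 site in 4.05% of 33469 promoter windows of this length. The window of Fgf3 held neither of them, and neither window held a GC box (GGGCGG, in 30.5% of windows), a LEF/TCF core (CTTTGAA in 4.68% and CTTTGAT in 3.15%) or a CArG box (1.5%), which says only that these letters are not in these windows. Bases C and T make up 81.2% of the Fgf3 window, beside a median of 49.6% over all windows.

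Genes of the dental epithelium rose as a group. All 12 members of that list were higher at E18, 10 of them at least 2-fold (beside 14.2% and 6.63% of all genes), with a median log2 fold change of 1.38; their summed level was 8187 to 12599 normalized counts at E15 and 21001 to 28214 at E18. Sp6 (ENSMUSG00000038560), a transcription factor needed for cusp and enamel formation, had 35.2, 28.2, 20.5, 38.4 and 31.0 at E15 and 700.1, 1261, 1235, 1179 and 1419 at E18, a gap of more than 10-fold between the closest teeth (log2 fold change 5.23 ± 0.23 (SE), adjusted p = 3.22e-07). Foxi3, a shape factor that acts with ectodysplasin, had 111, 72.2, 171, 201 and 137 at E15 and 823, 1058, 996, 990.4 and 1064 at E18 (log2 fold change 2.85 ± 0.23 (SE), adjusted p = 1.49e-05). Trp63, a regulator of stratified epithelia in general, had 1626, 1222, 1743, 1106 and 1700.1 at E15 and 2927, 3682, 2674, 3147 and 3547 at E18 (log2 fold change 1.13 ± 0.15 (SE), adjusted p = 0.000285). Neither of these overlapped between stages. Genes of adhesion and basement membrane also rose on the log2 scale, Perp by 1.66 ± 0.19 (SE, adjusted p = 0.000119), Lama3 by 1.36 ± 0.14 (adjusted p = 7.1e-05) and Cdh3 by 0.67 ± 0.17 (adjusted p = 0.0162). Of the 12, Cdh3 and Sostdc1 were the members whose teeth overlapped between stages.

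Sostdc1, a secreted inhibitor of BMP and Wnt signals, varied with single teeth. It had 1280.2, 1222, 3448, 1219 and 1497 at E15 and 3815, 5514, 2381, 5519.6 and 5416 at E18 (log2 fold change 1.40 ± 0.33 (SE), adjusted p = 0.0111). E15 replicate 3 was high and E18 replicate 3 low, and without the latter the stages were apart (log2 fold change 1.57, adjusted p = 0.0016).

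Genes of the dental mesenchyme did not move together. Of 13 tested, 2 rose and 4 fell (15.4% and 30.8%, beside 14.2% and 6.73% of all genes), with a median log2 fold change of -0.073, and the summed level went from 39015 to 43406 normalized counts at E15 down to 28912 to 32071 at E18. The counts were 3 higher and 6 lower without E18 replicate 3. Lhx8 (ENSMUSG00000096225), a LIM homeobox factor of the jaw mesenchyme, had 4968, 4907, 5060.5, 5339 and 4803 at E15 and 2747, 2145, 2859.9, 2566 and 2526 at E18 (log2 fold change -0.95 ± 0.09 (SE), adjusted p = 3.97e-05). Pdgfra, a receptor carried widely by mesenchymal cells, fell by 0.58 on the log2 scale from 11644 ± 1241 to 7682 ± 687 normalized counts (adjusted p = 0.00167). Msx1 fell from 5100.2, 4554, 3898, 4941 and 5806 to 2785, 2719.7, 3705, 3307 and 3806 (log2 fold change -0.56 ± 0.13 (SE), adjusted p = 0.0112), and Runx2, best known from bone, from 7115 ± 716 to 4819 ± 864 (log2 fold change -0.55 ± 0.13 (SE), adjusted p = 0.0109); neither overlapped. Pax9 and Lhx6 did not pass (log2 fold changes -0.49 and -0.39, adjusted p = 0.0821 and 0.0569) and passed as falls without E18 replicate 3 (-0.63 and -0.50, adjusted p = 0.00886 and 0.0028). Barx1, a factor of the molar field, did not pass, at 2766 ± 299.7 and 2723 ± 430.5 normalized counts (log2 fold change -0.007, 95% interval -0.27 to 0.26). With all teeth, Fgf3 and Dlx2 were the members that rose, Dlx2 from 796 ± 206 to 1299.6 ± 297 (log2 fold change 0.72 ± 0.20 (SE), adjusted p = 0.0266). The call of Dlx2 was lost in 5 of the fits without 1 tooth, at an adjusted p of up to 0.0721.

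The levels of both lists were also read within each tooth, as a log2 ratio to a broadly expressed gene of the layer that names the list. This gene was Trp63 for the epithelial and Pdgfra for the mesenchymal list. Both reference genes were chosen after their values were seen, and each ratio was compared between stages with a two-sided exact permutation test over teeth, adjusted over 23 ratios; the smallest p that 5 against 5 teeth allow is 0.00794. Relative to Trp63, Shh was higher at E18 by 5.99 (log2, adjusted exact p = 0.0261), Sp6 by 4.06 (0.0261) and Foxi3 by 1.78 (0.0261), each with no overlap between stages. Edar and Perp were higher by 0.57 and 0.51 (both 0.0304), with overlap. Lama3 (difference 0.24, adjusted exact p = 0.319) did not pass. For Bcl11b the difference relative to Trp63 was -0.47 (adjusted exact p = 0.0304), although its own level rose.

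Relative to Pdgfra, Fgf3 was higher at E18 by 6.51 (adjusted exact p = 0.0261), Dlx2 by 1.3 (0.0304), Bmp4 by 1.06 (0.0304), Inhba by 0.69 (0.0261) and Barx1 by 0.57 (0.0261). Pdgfra itself was lower at E18, and the levels of Bmp4, Inhba and Barx1 on their own did not pass the test between stages. Fgf3 and Bmp4 are also on the enamel knot list, so their ratios need not reflect the mesenchyme alone. Lhx8 was lower, with a difference of -0.37 (adjusted exact p = 0.0261). Msx1, Runx2 and Pax9 differed by 0.023, 0.023 and 0.086 (adjusted exact p = 0.929, 0.929 and 0.776) and did not pass. In E18 replicate 3, Fgf10 and Dlx1 lay below the other E18 teeth. Without that tooth both passed as higher relative to Pdgfra (Fgf10 by 1.02, adjusted exact p = 0.0332, and Dlx1 by 0.71, 0.0332). With it the differences of 0.73 and 0.45 did not pass (adjusted exact p = 0.0842 and 0.231). Cdh3 changed in the same way, to -0.55 relative to Trp63 (adjusted exact p = 0.0487 without and 0.117 with that tooth). A ratio of this kind shows unequal change of 2 genes and does not say which cells changed.

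**Figure D3:**
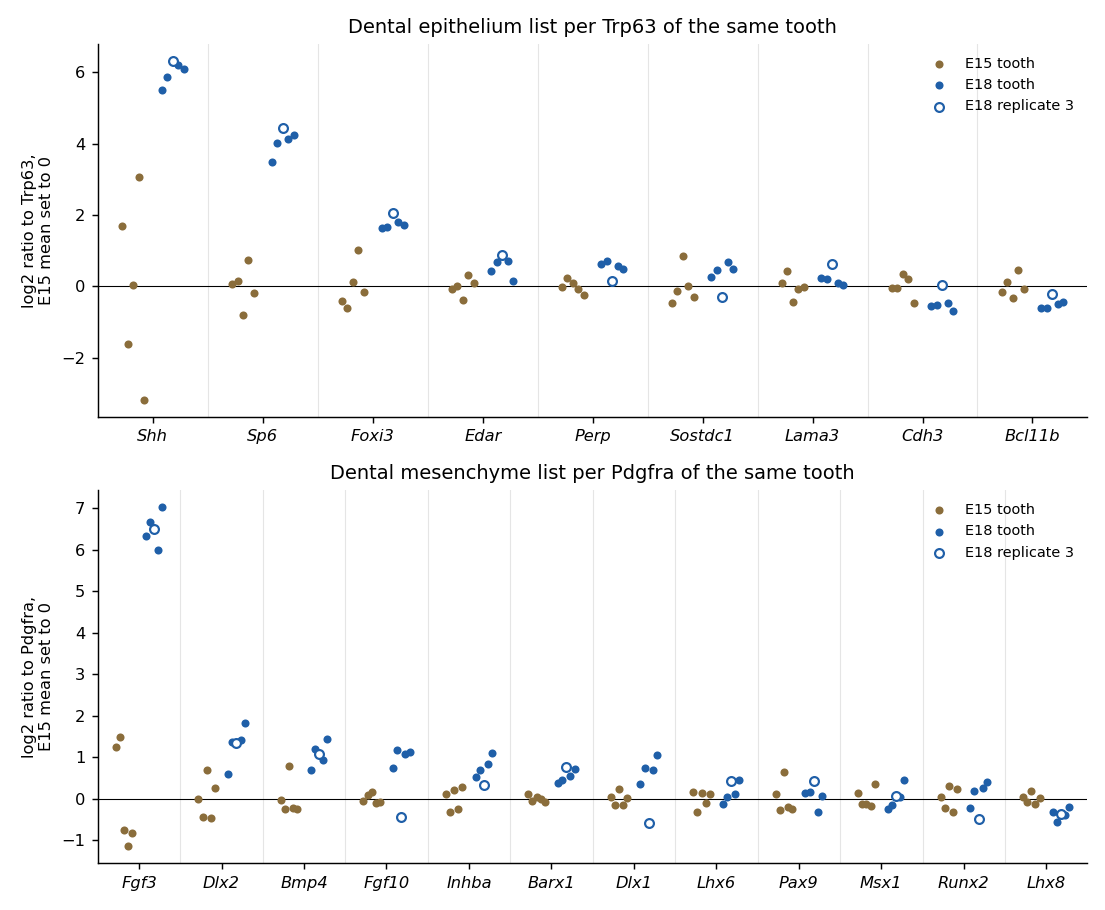
Log2 ratio of each list gene to Trp63 (top, 9 epithelial genes) or Pdgfra (bottom, 12 mesenchymal genes) of the same tooth, with the E15 mean set to 0; brown points are E15 teeth, blue points E18 teeth and open circles E18 replicate 3. Shh, Sp6 and Foxi3 stand above all E15 teeth in the upper panel, and Fgf3 does so by more than 4 log2 units in the lower panel, where Msx1, Runx2 and Pax9 spread around 0.

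Among the keystone categories, shape genes had the largest share of rises, a difference between categories that was not tested. Of 28 tested, 15 were higher and 2 lower at E18 (53.6% and 7.14%, beside 14.2% and 6.73% of all genes), with a median log2 fold change of 0.65. Without E18 replicate 3 the counts were 16 and 4, Chuk, a kinase of the NF-kB pathway, being 1 of the genes gained (adjusted p = 0.0217 without and 0.221 with that tooth). The 2 that fell with all teeth were Bmp2, an enamel knot ligand, with 417, 500.0, 513, 368 and 389 at E15 and 227, 178, 141, 228 and 164 at E18 (log2 fold change -1.20 ± 0.16 (SE), adjusted p = 0.00036), and Pdgfra. The ectodysplasin receptor Edar had 81.0, 64.3, 69.9, 72.5 and 94.3 at E15 and 206, 313, 258, 273 and 208 at E18 (log2 fold change 1.73 ± 0.17 (SE), adjusted p = 4.02e-05), and its adaptor Edaradd rose from 124 ± 18.3 to 256 ± 50.7 (log2 fold change 1.06 ± 0.17 (SE), adjusted p = 0.000968), while the ligand Eda had a log2 fold change of 0.27 (95% interval 0.0057 to 0.53) and did not pass. Wnt10a, a ligand of the dental epithelium, had 137, 139.9, 116, 101.2 and 128 at E15 and 326, 488, 592, 384 and 488 at E18 (log2 fold change 1.88 ± 0.17 (SE), adjusted p = 3.15e-05). Msx2, a homeobox factor downstream of BMPs, had 146, 202, 86.7, 39.4 and 123 at E15 and 355, 550.0, 456, 513 and 491 at E18 (log2 fold change 1.99 ± 0.34 (SE), adjusted p = 0.00146); the stages did not overlap for it either. Smaller rises were those of Bmp7, Jag2, Bcl11b, Fst and Lrp4, from 0.45 (Lrp4) to 0.81 (Bmp7). Jag2 lost its call without E15 replicate 4, at an adjusted p of 0.0526.

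Progression genes split. Of 15, 4 rose, Shh, Trp63 and Lef1 among them, Msx1, Runx2 and Dicer1 fell, and 8 did not pass (26.7% and 20%, beside 14.2% and 6.73% of all genes), with a median log2 fold change of 0.19. Lef1, the transcription factor that carries Wnt signals to their targets, had 1828, 1316, 2338, 1765 and 2069 at E15 and 2041, 2711, 2696, 2854 and 2776 at E18 (log2 fold change 0.50 ± 0.15 (SE), adjusted p = 0.0327). Its stages overlapped and 6 of the fits that left out 1 tooth lost the call, at an adjusted p of up to 0.0788. Dicer1, the enzyme that processes miRNAs, had 3257, 3542, 3531, 3424 and 3076 at E15 and 2580.5, 2688, 1583, 2427 and 2415 at E18 (log2 fold change -0.51 ± 0.13 (SE), adjusted p = 0.0165), its lowest value being E18 replicate 3. Bmpr1a, a BMP receptor, was at 393 in that tooth against 1448 to 1917 in the other E18 teeth and 1928 to 2397 at E15. Its stages did not overlap with or without the tooth. The fall missed the threshold with the tooth (log2 fold change -0.61, adjusted p = 0.202) and passed without it (log2 fold change -0.36, adjusted p = 0.0123). Ctnnb1, the intracellular mediator of Wnt signals, had a log2 fold change of 0.20 (95% interval -0.026 to 0.43), and Inhba, a mesenchymal activin, one of 0.11 (95% interval -0.14 to 0.37). Without E18 replicate 3 the count was 5 higher and 5 lower.

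Of the 10 double genes tested, Dlx2 and Dlx3 rose and Lhx8, Dlx6 and Gli3 fell. The counts were 2 higher and 4 lower without E18 replicate 3. Dlx genes are homeobox factors that pattern the jaw and teeth. Dlx3 had 783 ± 256 and 1363 ± 225 normalized counts (log2 fold change 0.81 ± 0.23 (SE), adjusted p = 0.0272), and Dlx6 had 360.4 ± 35.4 and 228 ± 42.3 (log2 fold change -0.65 ± 0.14 (SE), adjusted p = 0.00623). The call of Dlx3 was lost without E15 replicate 3 and without E18 replicates 4 or 5, at an adjusted p of up to 0.0683. Dlx1 had a log2 fold change of -0.073 (95% interval -0.50 to 0.35), Dlx4 of 0.84 (95% interval 0.16 to 1.52) and Dlx5 of 0.39 (95% interval 0.04 to 0.74). Tissue genes gave 7 rises and 1 fall among 21 (33.3% and 4.76%), and dispensable genes 40 rises and 8 falls among 88 (45.5% and 9.09%), with a median log2 fold change of 0.14 and 0.43. Over all genes the shares were 14.2% and 6.73%. Without E18 replicate 3, dispensable genes had 42 rises and 13 falls.

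**Figure D4:**
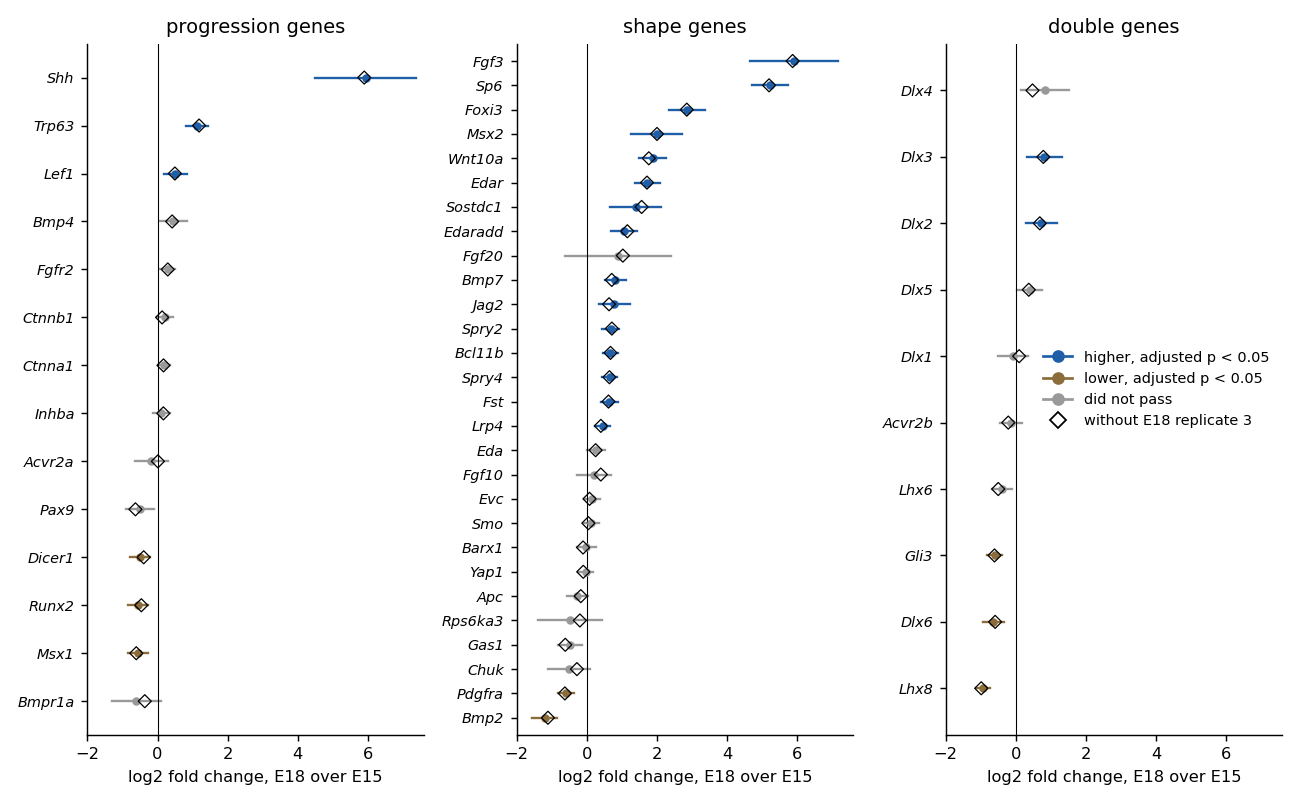
Log2 fold change, E18 over E15, of progression, shape and double genes, with 95% intervals; blue marks genes higher and brown genes lower at an adjusted p under 0.05, grey those that did not pass, and open diamonds the value without E18 replicate 3. Shh, Fgf3 and Sp6 lie beyond 4 log2 units, and most of the other genes between -1 and 2.

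The tissue genes include those for proteins of enamel, dentine and their secretion. Of the 27 listed, Amtn, Dspp, Enam, Klk4 and Mmp20 had no row in the data and Ambn was not tested. The 21 genes counted thus leave out these matrix and protease genes. Fam20a and Fam20c, which act in the phosphorylation of secreted matrix proteins, rose from 130.3 ± 30.8 to 376 ± 90.2 (log2 fold change 1.54 ± 0.22 (SE), adjusted p = 0.000457) and from 130.4 ± 34.8 to 363 ± 19.0 (log2 fold change 1.49 ± 0.18 (SE), adjusted p = 0.000143). Nectin1, an adhesion molecule of the enamel epithelium, rose from 1718 ± 148 to 4629 ± 777 (log2 fold change 1.44 ± 0.12 (SE), adjusted p = 1.92e-05). Slc13a5, a citrate transporter, had 298, 361, 84.3, 68.2 and 512 at E15 and 124, 42.7, 56.1, 108 and 51.9 at E18 (log2 fold change -1.75 ± 0.55 (SE), adjusted p = 0.0417); its stages overlapped, and 7 alternatives, 6 of them fits without 1 tooth, took the adjusted p above 0.05, to 0.104 at most. The enamel matrix genes Amelx and Ambn, named after their values were seen, had low counts. Amelx was at 1.2 to 44.0 normalized counts at E15 and 9.16 to 23.7 at E18 (log2 fold change 0.26, 95% interval -1.20 to 1.72), and Ambn had no count in any E15 tooth and 1.98, 1.26, 8.02, 9.27 and 4.83 normalized counts at E18, too few for the test. Of the bone genes, Col1a1, the main collagen of bone and dentine, had 97137, 103705, 50778, 63996 and 133968 at E15 and 240291, 194024, 281789, 260356 and 253864 at E18 (log2 fold change 1.47 ± 0.24 (SE), adjusted p = 0.00121). Spp1, a matrix phosphoprotein, had 11.2, 42.9, 0, 8.53 and 28.7 at E15 and 241, 57.8, 333, 352 and 159 at E18 (log2 fold change 3.68 ± 0.71 (SE), adjusted p = 0.00329). The stages overlapped in neither of these. Alpl and Dmp1 had log2 fold changes of 0.14 (95% interval -0.54 to 0.81) and -0.35 (95% interval -1.38 to 0.67). The sum of the 4 bone list genes at hand, Spp1, Alpl, Dmp1 and Col1a1, was 52514 to 138521 at E15 and 196582 to 285408 at E18. Col1a1 makes up most of that sum in every tooth, and the part of adjacent bone in it was not tested.

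Genes of the extracellular matrix and its remodelling rose in 12 of 18 cases and fell in none (66.7%, beside 14.2% of all genes), with a median log2 fold change of 0.62. Mmp13 (ENSMUSG00000050578), a collagenase, had 7.26, 1.13, 7.23, 1.07 and 4.60 at E15 and 337, 74.1, 87.0, 405 and 252 at E18 (log2 fold change 5.66 ± 0.65 (SE), adjusted p = 0.00012). Its E18 teeth differed among themselves by more than 5-fold, yet the lowest was above every E15 tooth. Mmp9, a gelatinase typical of osteoclasts and vessels, had 27.4, 31.6, 7.23, 34.1 and 41.4 at E15 and 891, 476, 723, 1089 and 793 at E18, with no overlap (log2 fold change 4.82 ± 0.36 (SE), adjusted p = 8.19e-06). Col4a1, of basement membranes, rose from 11987 ± 684 to 22919 ± 3336 (log2 fold change 0.95 ± 0.11 (SE), adjusted p = 0.000115). Mmp14 and Timp1 passed with log2 fold changes of 0.35 and 0.52 (adjusted p = 0.0436 and 0.0467), but Mmp14 lost its call in 9 alternatives and Timp1 in 11, at an adjusted p of up to 0.108 for both. Tnc, Postn, Fbln2 and Lama4 did not pass, with log2 fold changes of -0.089, -0.038, 0.18 and 0.23. Lama4 passed without E18 replicate 3 (log2 fold change 0.19, adjusted p = 0.0369; 0.0584 with it). Of 9 endothelial markers, 3 were in the table. Col4a1 is 1 of them and makes up most of their summed level, which was 11299 to 13251 normalized counts at E15 and 20928 to 29449 at E18. The others were Aqp1, with 257 ± 65.8 normalized counts at E15 and 621 ± 185 at E18, and Dll4, with 182 ± 34.0 and 255 ± 35.3. The part of vessels in the rise of Col4a1 was not tested.

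Wnt pathway genes moved in both directions. Of 61 tested, 19 rose and 8 fell (31.1% and 13.1%, beside 14.2% and 6.73% of all genes), with a median log2 fold change of 0.11. The counts were 19 higher and 10 lower without E18 replicate 3. Among the ligands, Wnt7a rose from 14.5 ± 8.40 to 83.8 ± 12.6 (log2 fold change 2.53 ± 0.34 (SE), adjusted p = 0.000331). Wnt9b had 20.7, 40.6, 28.9, 34.1 and 44.8 at E15 and 2.96, 2.51, 3.44, 1.03 and 2.41 at E18, where no tooth had more than 6 counts (log2 fold change -3.67 ± 0.37 (SE), adjusted p = 5.4e-05). Wnt2 (ENSMUSG00000010797), another Wnt ligand, had 159.7, 161, 108, 141 and 106 at E15 and 20.8, 20.1, 34.4, 29.9 and 24.1 at E18 (log2 fold change -2.38 ± 0.22 (SE), adjusted p = 3.41e-05). The stages overlapped in neither Wnt9b nor Wnt2. The secreted and feedback inhibitors split as well, with 6 of 13 higher and 4 lower (46.2% and 30.8%). Frzb (ENSMUSG00000027004), a soluble Wnt-binding protein, had 3525, 3062, 3726, 3338 and 3782 at E15 and 1315, 1479, 906, 1423 and 1172 at E18 (log2 fold change -1.45 ± 0.13 (SE), adjusted p = 2.73e-05), and its relative Sfrp2 fell from 10001 ± 689 to 5736 ± 783 (log2 fold change -0.79 ± 0.11 (SE), adjusted p = 0.00036), while Sfrp5 rose from 143 ± 51.2 to 289 ± 30.7 (log2 fold change 1.02 ± 0.26 (SE), adjusted p = 0.0164).

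Dkk2 fell and Dkk3 rose (log2 fold changes -0.61 ± 0.11 and 0.94 ± 0.10, adjusted p = 0.00224 and 8.2e-05), Dkk4 did not pass (-0.068, 95% interval -1.74 to 1.61), and Sfrp4 rose (adjusted p = 0.0485) but lost its call in 10 alternatives. Of the feedback genes that Wnt signalling itself turns on, Axin2 fell from 2138, 1727, 2126, 2039 and 2045 to 1271, 1679, 1695, 1353 and 1531 (log2 fold change -0.41 ± 0.10 (SE), adjusted p = 0.017), whereas Nkd2 rose (log2 fold change 1.06 ± 0.12 (SE), adjusted p = 0.000128) and Rnf43 rose (log2 fold change 0.79 ± 0.17 (SE), adjusted p = 0.0071). Tle1, a co-repressor of the Wnt transcription factors, had 2518, 2525, 3140.4, 2849 and 2470.2 at E15 and 1454, 1460.3, 1750.1, 1494 and 1414 at E18 (log2 fold change -0.82 ± 0.097 (SE), adjusted p = 0.000149). Tle1, Axin2 and Frzb did not overlap between stages. Tcf7l2, 1 of those factors, fell from 2199 ± 982 to 1241 ± 152 with overlap (log2 fold change -0.81 ± 0.24 (SE), adjusted p = 0.0329), and 4 of the fits without 1 tooth lost its call, at an adjusted p of up to 0.079.

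In the TGFB pathway 13 of 52 genes rose and 5 fell (25.0% and 9.62%, beside 14.2% and 6.73% of all genes), with a median log2 fold change of -0.031. The counts were 16 higher and 7 lower without E18 replicate 3. Inhbb, an activin subunit, had 18.4, 11.3, 10.8, 9.59 and 16.1 at E15 and 69.2, 84.1, 92.8, 51.5 and 71.2 at E18 (log2 fold change 2.46 ± 0.26 (SE), adjusted p = 7.74e-05). Bmp2 fell, as given above, and Bmp7 rose from 618 ± 64.1 to 1071 ± 204 (log2 fold change 0.81 ± 0.14 (SE), adjusted p = 0.00152), while Bmp4 had a log2 fold change of 0.45 (95% interval 0.075 to 0.83) and did not pass. The antagonists Fst (log2 fold change 0.65 ± 0.12 (SE), adjusted p = 0.0021) and Sostdc1 rose, and Noggin (Nog) had a log2 fold change of 0.086 (95% interval -0.28 to 0.45). Map2k6, a kinase upstream of p38, fell (log2 fold change -0.52 ± 0.15 (SE), adjusted p = 0.0275; adjusted p = 0.0642 without E18 replicate 4). Notch pathway genes rose in 13 of 30 cases and fell in none (43.3%, beside 14.2% of all genes), with a median log2 fold change of 0.27; without E18 replicate 3, 1 fell. Lfng, which modifies Notch receptors, had 348, 259.6, 255, 292 and 352 at E15 and 616, 777, 903, 671 and 681 at E18 (log2 fold change 1.29 ± 0.14 (SE), adjusted p = 8.54e-05), and the ligand Dll1 rose from 55.8 ± 8.49 to 123 ± 35.9 (log2 fold change 1.15 ± 0.22 (SE), adjusted p = 0.00313). The ectodysplasin pathway had 4 rises and no fall among 17 genes (1 fall without that tooth), Edar and Edaradd being the largest. By type of molecule, 23 of 53 ligands rose and 4 fell, as did 10 and 2 of 33 receptors, 19 and 8 of 123 intracellular members and 11 and 6 of 28 transcription factors, with medians of 0.47, 0.14, 0.011 and 0.11. The shares that rose were 43.4%, 30.3%, 15.4% and 39.3%, and those that fell 7.55%, 6.06%, 6.5% and 21.4%, so intracellular members were near the 14.2% and 6.73% of all genes in both directions. Without E18 replicate 3, 26 ligands rose and 6 fell, as did 11 and 3 receptors, 23 and 16 intracellular members and 10 and 7 transcription factors.

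**Figure D5:**
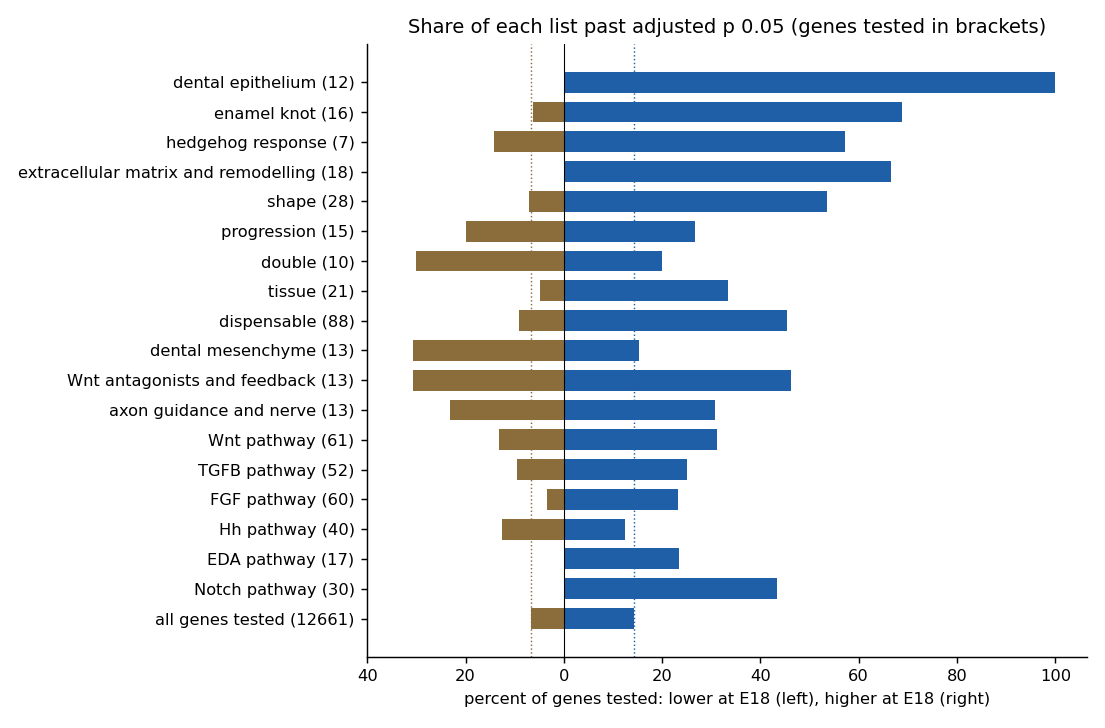
Percent of the genes tested in each list (their number in brackets) that were higher (blue, right) or lower (brown, left) at E18 at an adjusted p under 0.05; dotted lines mark the shares over all 12661 genes, 14.2% and 6.73%. The dental epithelium list was higher in full, the enamel knot list in 11 of 16 genes, and the dental mesenchyme list had more falls (4) than rises (2).

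The enamel knot list drew these ligands together. Of 16 genes, 11 rose, Bmp2 fell and 4 (Fgf9, Fgf20, Bmp4 and Dkk4) did not pass, with a median log2 fold change of 1.31. The share that rose was 68.8%, beside 14.2% of all genes, and the share that fell 6.25%, near the 6.73% of all genes. Cdkn1a, the cell cycle inhibitor of the non-dividing knot cells, had 176, 119.6, 78.3, 93.8 and 202 at E15 and 487, 465, 794, 392 and 623 at E18 (log2 fold change 2.05 ± 0.28 (SE), adjusted p = 0.000414), and Slit1, a guidance cue that marks the knots, had 117, 67.7, 143, 169 and 87.4 at E15 and 282, 514, 401, 339 and 403 at E18 (log2 fold change 1.74 ± 0.25 (SE), adjusted p = 0.000484). Neither overlapped. Wnt10b rose from 181 ± 34.2 to 292 ± 26.4 (log2 fold change 0.71 ± 0.14 (SE), adjusted p = 0.00454).

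Immediate early genes, which cells switch on within minutes of a stimulus, were all higher at E18 and varied widely between teeth. Fos had 45.2, 30.5, 19.3, 18.1 and 57.5 at E15 and 503, 108, 729.6, 468 and 1235 at E18 (log2 fold change 4.15 ± 0.58 (SE), adjusted p = 0.000449). Egr1 had 384, 244, 182, 143 and 470.1 at E15 and 1254, 409, 1916, 1005 and 2267 at E18 (log2 fold change 2.28 ± 0.45 (SE), adjusted p = 0.00408). Jun had 1706, 1429, 1313, 1252 and 1632 at E15 and 2909, 1683, 3791, 2705 and 3468 at E18 (log2 fold change 1.00 ± 0.19 (SE), adjusted p = 0.00335). The 3 genes ranked the E18 teeth alike at the low end, with replicate 2 lowest in each, and for Egr1 and Jun that tooth overlapped with E15. The label texts on storage and homogenisation differ between the same stages, so that handling of the teeth and stage cannot be told apart here.

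Genes of axon guidance and nerves showed 4 rises and 3 falls among 13 (30.8% and 23.1%, beside 14.2% and 6.73% of all genes). The counts were 4 higher and 4 lower without E18 replicate 3. Ret, the receptor of the neurotrophic factor Gdnf, had 29.6, 21.4, 19.3, 25.6 and 12.6 at E15 and 129.9, 82.9, 143, 41.2 and 37.4 at E18 (log2 fold change 2.0 ± 0.42 (SE), adjusted p = 0.00532), whereas Gdnf was at 14.4 ± 5.08 and 14.4 ± 5.04 (log2 fold change 0.038, 95% interval -0.76 to 0.83). The semaphorin receptor Nrp2 fell from 8639 ± 1306 to 5789.6 ± 888 (log2 fold change -0.56 ± 0.13 (SE), adjusted p = 0.0104) and Epha7, an ephrin receptor, from 2584, 2624, 3464, 2652 and 2417 to 1939.7, 2278, 1118, 1822 and 1904 (log2 fold change -0.59 ± 0.17 (SE), adjusted p = 0.0303), neither with overlap; 6 of the fits without 1 tooth took Epha7 above the threshold, to an adjusted p of 0.0714 at most. Slitrk6, a neural adhesion protein, was at 34.4 in E18 replicate 3 against 197 to 229 in the other E18 teeth and 279.7 to 394 at E15, and it passed without that tooth (log2 fold change -0.65, adjusted p = 0.00142) but not with it (0.104). The 3 glial genes at hand, Cspg5, Aqp4 and Ptprz1, summed to 2411 to 3134 normalized counts at E15 and to 733 to 2285 at E18, the lowest being E18 replicate 3. Ptprz1 makes up most of this sum. Cspg5 and Aqp4 rose (log2 fold changes 0.68 and 1.13), and Ptprz1 passed as a fall only without that tooth (-0.51, adjusted p = 0.000932).

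Among the other large rises were genes listed as dispensable for the tooth. Cyp26c1, which degrades retinoic acid, had 11.2, 2.26, 4.82, 12.8 and 5.75 at E15 and 189, 171, 278, 248 and 241 at E18 (log2 fold change 4.86 ± 0.35 (SE), adjusted p = 6.85e-06). Aqp3, a water and glycerol channel of stratified epithelia, had 66.4, 59.8, 48.2, 13.9 and 21.8 at E15 and 601, 825, 1016, 469.9 and 602 at E18 (log2 fold change 4.05 ± 0.40 (SE), adjusted p = 4.27e-05). Thy1, a surface protein of fibroblasts and neurons, had 109, 159, 163, 158 and 146 at E15 and 595, 737, 991, 1187 and 885 at E18 (log2 fold change 2.60 ± 0.20 (SE), adjusted p = 8.95e-06). None of these overlapped between stages. No member of the muscle, cartilage, blood and proliferation lists could be matched to an identifier in the table, and only 2 of the osteoclast and 2 of the oral epithelium lists could, so their share in the germs was not tested. What lacked were symbols, and members of these lists may be among the genes without a symbol here.

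Most of the change lay in genes without a symbol here, since 5.5% of the 2656 genes called had one. Among those whose mean reached 50 normalized counts, the largest rises were in the mouse identifiers ENSMUSG00000043681 (0.226 ± 0.505, a single count over the E15 teeth, to 186 ± 63.3; adjusted p = 1.91e-06) and ENSMUSG00000044041 (25.0 ± 19.8 to 14800.1 ± 6318; log2 fold change 9.11 ± 0.59 (SE), adjusted p = 4.29e-06). The largest falls were in ENSMUSG00000040113 (128 ± 42.6 to 2.35 ± 2.38; log2 fold change -5.55 ± 0.55 (SE), adjusted p = 4.74e-05) and ENSMUSG00000055609 (144 ± 81.9 to 6.44 ± 4.20; log2 fold change -4.44 ± 0.59 (SE), adjusted p = 0.000312).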

How the data were processed

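RNA of single first molar germs was sequenced, 5 teeth at E15 and 5 at E18. The authors deposited a table of estimated counts from salmon (version 0.99.0 in the submitters' processing notes, genome Rnor_6.0) for 14185 genes under mouse Ensembl identifiers; these expected counts were already whole numbers, so rounding changed none. The transcript set, the join to mouse identifiers and the use of strand are not given in the sources used here, so reads of near-identical or overlapping genes may be split. A second deposited table without E18 libraries was not used.

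The 10 libraries were fitted alone in edgeR 4.0.16 under R 4.3.3 (quasi-likelihood F test; TMM scaling, filterByExpr, stage as the single term), with Benjamini-Hochberg adjustment over all genes tested and a threshold of 0.05; standard errors were derived from F, and intervals are 95%. Normalized counts are counts divided by DESeq2 1.42.0 size factors. Ratios within teeth used log2(normalized count + 1). The fit was tested on simulated data with 200 changed genes. Totals of 10993502 to 27571541 counts set the precision, and over all pairs of teeth within a stage chi-square per gene was at least 6.69, so no library was a copy of another. That teeth came from separate embryos is taken from the titles; whether they share a litter is not given, so p-values measure the spread between these teeth.

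The study lists 399 genes with both symbol and identifier; 356 were in the table and 349 were tested. Named were the 12 largest rises and 12 largest falls with no overlap between stages and a mean of 50 normalized counts or more, keystone genes changed at least 2-fold, the 2 largest rises and falls of each pathway and molecule type, and members of the lists described; a few of these are counted but not reported here. Members and lists were chosen with earlier results of these data known. Alternatives were DESeq2, other scalings and filters, limma 3.58.1 voom weights, the side of the jaw as a term, a replicate block by embryo number and leaving out teeth.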

Additional observations from a re-analysis of the deposited data

Results flagged for a closer look

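In groups of 5 teeth, a value was picked out when its gap to the nearest other tooth exceeded 71% of the range of the group. Of 76 groups examined, 11 had such a tooth, where chance alone would give about 3.8. Among genes, E15 replicate 3 was apart in Epha7 (3464 normalized counts) and Sostdc1 (3448), E15 replicate 2 in Fam20a (76.7), E18 replicate 3 in Fam20c (396) and Tle1 (1750.1), and E18 replicate 1 in Shh (701). The groups did not cover every gene named above. Outside them, E18 replicate 3 also lay below the other E18 teeth in Dicer1 (1583 against 2415 to 2688) and Chuk (160 against 530 to 573). Among measures of whole libraries, total counts set apart E15 replicate 1 (24109716) and E18 replicate 1 (27571541). The mean correlation with the own stage set apart E15 replicate 3 (0.951) and E18 replicate 3 (0.877), and the share of counts in the 10 most abundant genes set apart E15 replicate 3 (7.47%). What sets these teeth apart was not tested.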

How the results depend on the processing

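None of the 91 named genes that passed took the other sign in any of 19 alternatives, while 19 of the 53 that did not pass did so in at least 1. Of the 91, 75 passed in every alternative that tested them, other than the replicate block. The filter of at least 10 counts in every library removed Shh, Fgf3, Fgf4, Mmp13, Mmp9, Cyp26c1, Spp1, Wnt7a, Wnt9b, Ihh and Inhbb, so that alternative says nothing on them. The 16 that lost their call in at least 1 were Cdon, Dab1, Dlx2, Dlx3, Epha7, Jag2, Lef1, Map2k6, Mmp14, Reln, Sema3b, Sfrp4, Slc13a5, Sos2, Tcf7l2 and Timp1, and the causes were not tested. Of the 53, 18 passed in at least 1 alternative, 9 of them without E18 replicate 3. Leaving out single teeth gave 2028 to 3567 genes called, and 571 to 1484 genes lower at E18, both highest without E18 replicate 3. With voom library weights, which give that tooth 0.0712, 4627 genes were called and 2039 were lower; without both replicate 3 libraries, chosen after seeing the data, 4136 and 1773. DESeq2 called 3117 genes and no other scaling or filter moved a count by over 1.5 times. A replicate block by embryo number, possible for the 3 numbers present at both stages, left 71 genes (68 higher and 3 lower, all at least 2-fold) and 10 named genes. Same-numbered teeth of E15 and E18 come from different embryos. Their deviations correlated at 0.226, -0.114 and -0.071, and the number was the best match for 1 of 3. An embryo number is thus a label within a stage and pairs no teeth, so the 71 genes left under the block do not come from a paired comparison. Depth limits Fgf3, Fgf4, Wnt9b and Ambn, whose levels lie near 3 counts at one stage. Shh and Mmp13 were as low in some of the E15 teeth. Of the 840 genes at least 2-fold higher, 120 had an E15 mean under 10 normalized counts. Among the 218 at least 2-fold lower, 23 had an E18 mean under 10.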
